A study of Mus musculus with 6 samples.

Results

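Prostanoid signaling in tumor-associated macrophages (TAMs) was described here through 10 genes of the 39179 in the deposited count matrix, found by their symbols: the cyclooxygenases Ptgs1 and Ptgs2, the downstream synthases Ptges, Ptges3, Tbxas1 and Hpgds, the receptors Ptger2, Ptger4 and Ptgir, and the degrading enzyme Hpgd. All 10 symbols had 1 row each. TAMs came from subcutaneous flank tumors of a Braf V600E-driven melanoma cell line in C57BL/6 mice aged 8 weeks. The tumor cells were either parental with intact Ptgs genes (Ptgs-competent, 3 libraries) or Ptgs1/Ptgs2-/- after CRISPR/Cas9 editing (Ptgs-deficient, 3 libraries). The hosts were not edited, so the macrophages in both groups carried intact Ptgs1 and Ptgs2, and the levels of these genes do not check the labels. Macrophages were sorted as live CD45+ CD11b+ F4/80+ cells without NK1.1 or Ly6G and with absent or dim Ly6C, and each library was a pool of tumors of 1 cell line. The day on which these tumors were taken was not given in the sources used here. The spread between libraries is therefore a spread between pools. Fewer cells of a type and less RNA per cell cannot be told apart in such bulk samples.

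Prostanoids are lipid mediators made from arachidonic acid. COX-1 (Ptgs1) and COX-2 (Ptgs2) convert it to PGH2, from which terminal synthases make PGE2, PGD2, thromboxane A2 or prostacyclin, and each product acts through its own G protein-coupled receptors. In macrophages, COX-1 is largely constitutive and COX-2 and the microsomal PGE2 synthase encoded by Ptges are induced by inflammatory stimuli. PGE2 signals through EP2 and EP4, which raise cAMP and restrain many inflammatory functions.

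Libraries held 4431184 to 8760679 counts of 3′-end reads, and levels are given as TMM-scaled CPM, that is, scaled to a common library size. Such counts do not scale with transcript length, so levels of different genes may be set side by side on this scale. A floor of 3 counts corresponded to 0.357 to 0.647 CPM, and between 3.40% and 21.6% of the tested genes were at 0 in a library. Floors cover counting error only. A call in edgeR's quasi-likelihood test needed an adjusted p of at most 0.05 and, in either direction, a change of 1.5 on the log2 scale. All folds are Ptgs-deficient over Ptgs-competent. Of 8793 genes tested, 14 were called higher and 5 lower, which is 0.216%, and 8.83% had an unadjusted p under 0.05. The general macrophage markers (12 genes, among them Adgre1 encoding F4/80, Csf1r and C1qa) had counts in every library. Their summed level was 16889, 18090 and 6551 CPM in Ptgs-competent replicates 1, 2 and 3, against 21833, 21708 and 25724 CPM in Ptgs-deficient replicates 1, 2 and 3. Ptgs-competent replicate 3 stood apart, with the lowest macrophage marker sum and, at 1545 CPM, the highest sum of tumor or stromal transcripts (425 and 568 CPM in the other Ptgs-competent libraries, 58.6 to 61.2 CPM in the Ptgs-deficient ones).

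Of the 10 prostanoid genes, 9 passed the filter on low counts and 0 were called by edgeR's quasi-likelihood test. Unadjusted p-values fell under 0.05 for 3 of the 9, namely Tbxas1 and Ptgir, which were higher in Ptgs-deficient TAMs, and Ptges, which was lower. The likelihood ratio test of edgeR called 2 members, Tbxas1 and Ptgir, and 2.74% of all tested genes. DESeq2 called the same 2 members and 3.73% of all tested genes. Levels did not overlap between the groups, and were higher in Ptgs-deficient TAMs, for 2 of the 9 (Tbxas1 and Ptgir), against 11% of all tested genes. They were lower without overlap for 0 of the 9, against 8.01%. Ptgir, at 0 in every Ptgs-competent library, passed the filter through the Ptgs-deficient libraries alone, so its direction was fixed wherever it enters these counts. Log2 fold changes were positive for 4 members and negative for 5, with a median of -0.07 beside 0.02 over all tested genes. With 3 libraries against 3, an exact permutation test on a single value cannot give a two-sided p under 0.1, so no such test was used on single genes.

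**Figure D1:**
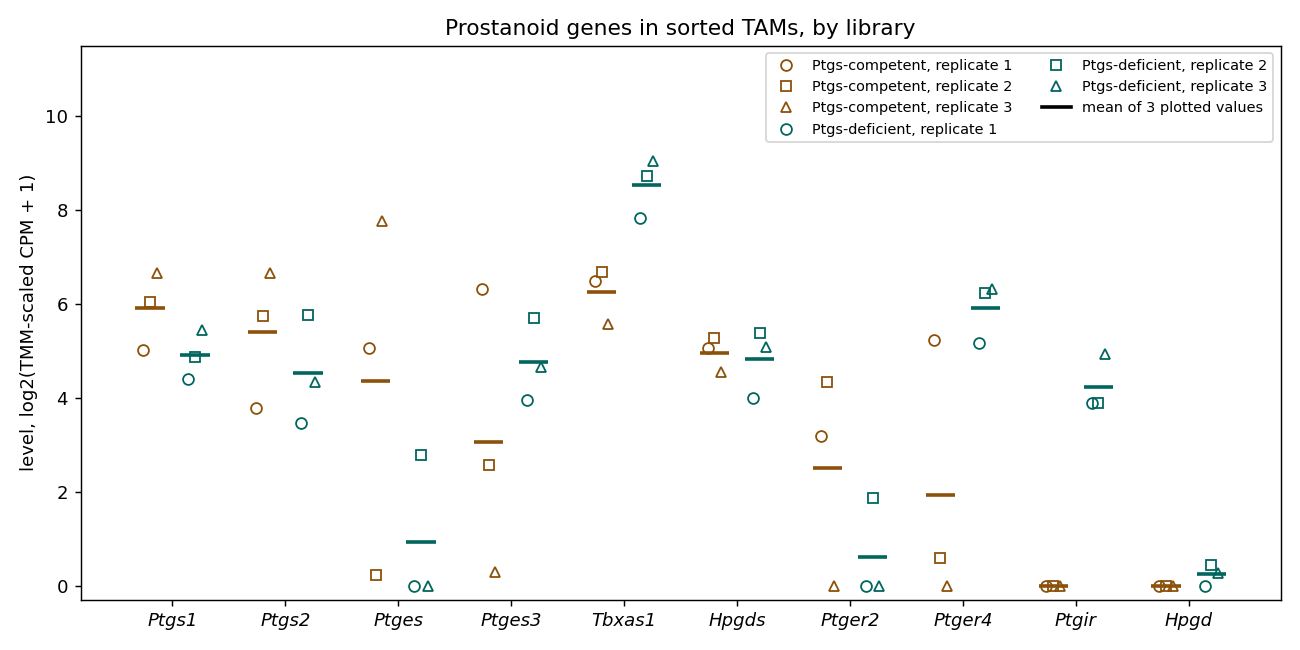
Levels of the 10 prostanoid genes in each TAM library, as log2(TMM-scaled CPM + 1) on the vertical axis; symbols mark replicates, colors the Ptgs status of the tumor cells, and bars the mean of the 3 plotted values. Tbxas1 and Ptgir are the genes whose groups separate, with Ptgir at 0 in every Ptgs-competent library.

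The promoters of the members that separated the groups, Tbxas1 and Ptgir, are shown with those of the cyclooxygenase pair at the head of the pathway. Sequences are RefSeq windows of the GRCm38.p6 build from 250 bases before to 30 bases after the annotated start, all on the plus strand: chr2:36230176-36230455 for Ptgs1, chr1:150099781-150100060 for Ptgs2, chr6:38918736-38919015 for Tbxas1 and chr7:16906240-16906519 for Ptgir. The start used for Tbxas1 lies inside the annotated gene. Capitals mark matches, on either strand, to the 8 motifs searched.
Ptgs1: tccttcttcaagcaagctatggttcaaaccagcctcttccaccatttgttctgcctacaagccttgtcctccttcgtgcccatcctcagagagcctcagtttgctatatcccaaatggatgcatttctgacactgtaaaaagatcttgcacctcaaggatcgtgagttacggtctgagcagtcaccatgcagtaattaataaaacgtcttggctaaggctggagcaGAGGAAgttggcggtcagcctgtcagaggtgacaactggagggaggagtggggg
Ptgs2: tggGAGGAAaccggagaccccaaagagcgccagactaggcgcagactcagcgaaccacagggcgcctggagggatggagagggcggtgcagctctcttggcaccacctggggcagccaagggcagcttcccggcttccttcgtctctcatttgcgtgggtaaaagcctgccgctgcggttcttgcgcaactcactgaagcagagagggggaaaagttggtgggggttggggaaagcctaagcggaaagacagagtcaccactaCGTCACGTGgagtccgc
Tbxas1: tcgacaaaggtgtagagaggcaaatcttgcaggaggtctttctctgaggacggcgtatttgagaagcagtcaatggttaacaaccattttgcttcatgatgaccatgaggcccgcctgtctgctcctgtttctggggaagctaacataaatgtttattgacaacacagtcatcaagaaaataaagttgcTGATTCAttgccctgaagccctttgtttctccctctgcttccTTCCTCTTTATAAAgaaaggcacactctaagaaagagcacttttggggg
Ptgir: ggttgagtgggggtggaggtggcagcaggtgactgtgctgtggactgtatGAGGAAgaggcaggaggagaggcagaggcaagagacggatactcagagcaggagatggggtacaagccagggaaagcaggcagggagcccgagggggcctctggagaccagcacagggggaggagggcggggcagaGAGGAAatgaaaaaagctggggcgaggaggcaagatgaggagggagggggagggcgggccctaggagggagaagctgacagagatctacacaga

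The letters GAGGAA, a core bound by the myeloid ETS factor PU.1, were present in 7 of the 10 member windows and in 26.0% of 32851 windows of the same length. In the printed stretches they begin 24 bases before the start in Ptgs1, 247 before it in Ptgs2, 19 before it in Tbxas1 (as the reverse complement) and 200 and 64 before it in Ptgir. In Tbxas1 this core directly adjoins a TATA box (TATAAA, in 13.1% of windows), whose overlapping forward and reverse matches begin 11 and 13 bases before the start, and an AP-1 site (TGANTCA, 7.46% of windows) begins 61 bases before it. In Ptgs2 a CRE half-site (TGACG, 19.9% of windows) read on the reverse strand overlaps an E-box (CACGTG, 6.79% of windows), and they begin at bases 14 and 17 of the transcript. None of the 10 windows held a full CRE (TGACGTCA, 1.74% of windows) or the interferon-gamma-activated motif GAS (TTCNNNGAA, 7.83% of windows), and the NF-kB consensus (7.94% of windows) was found in Ptges3 alone. A match is a run of letters and was not tested as a binding site, and a missing match says only that these letters are not in the window.

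Tbxas1 encodes thromboxane A synthase, which turns PGH2 into the vasoconstrictor and platelet activator thromboxane A2. It was the most abundant of the 10 genes in each Ptgs-deficient library. In Ptgs-competent TAMs it had 555, 619 and 218 counts in replicates 1, 2 and 3, or 88.5, 102 and 47.0 CPM. In Ptgs-deficient TAMs it had 1238, 3554 and 2550 counts, or 226, 423 and 528 CPM. The lowest Ptgs-deficient library lay more than 2 times above the highest Ptgs-competent one, so the groups did not overlap. Means were 79.0 ± 28.5 CPM in Ptgs-competent and 392 ± 153 CPM in Ptgs-deficient TAMs (SD, n = 3 each). The difference did not reach the threshold: the log2 fold change was 2.31 (SE 0.463, 95% interval 1.28 to 3.34), with an unadjusted p of 0.000532 and an adjusted p of 0.0941 in edgeR's quasi-likelihood test. Among tested genes this mean lay at percentile 76.7 in Ptgs-competent and 95.4 in Ptgs-deficient TAMs. Over the 18 alternative settings the log2 fold change ranged from 1.48 to 2.62 and the adjusted p from 0.000474 to 0.482, and Tbxas1 was called under 6 of them. Without Ptgs-competent replicate 3, its lowest library, the log2 fold change was 2.10 (adjusted p = 0.126, edgeR).

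Thromboxane synthase is also a platelet enzyme, and platelet markers were set beside it. Of 8 platelet genes, 6 (Gp9, Gp1bb, Gp1ba, Treml1, Tubb1 and Gp6) had 0 counts in every library. The summed level of the list was 34.7, 115 and 33.4 CPM in Ptgs-competent and 0, 8.69 and 4.97 CPM in Ptgs-deficient TAMs. It came from Itgb3, which macrophages also express, with Itga2b adding to it in Ptgs-competent replicate 3, so its direction does not measure platelets, and their part in the Tbxas1 level was not tested. Of the 12 general macrophage markers, 10 had, like Tbxas1, a positive log2 fold change, with a median of 0.94, 6 had an unadjusted p under 0.05 in edgeR and 0 were called there or by DESeq2. Markers of tissue-resident macrophages (13 genes, such as Cd5l, Siglec1 and Lyve1) summed to 3121, 3300 and 1634 CPM in Ptgs-competent and 7731, 9863 and 8913 CPM in Ptgs-deficient libraries. All 12 of them that were tested separated the groups and were higher in Ptgs-deficient TAMs, against 11% of all tested genes. The list was chosen with earlier results of these data known. Of the 12, 2 (Cd5l and Cd209g) were called, against 0.216% of all tested genes. The likelihood ratio test called 9 (2.74% of all tested genes) and DESeq2 called 8 (3.73% of all). For 4 of the 12 (Timd4, Siglec1, Cd5l and Cd209g), both called genes among them, each Ptgs-competent library held at most 3 counts, so they passed the filter through the Ptgs-deficient libraries alone and their direction was fixed. The part of either list in the Tbxas1 difference was not tested. Divided by the general macrophage markers, Tbxas1 stood at 5.24, 5.62 and 7.17 CPM per 1000 CPM of markers in Ptgs-competent and at 10.3, 19.5 and 20.5 in Ptgs-deficient TAMs, and the groups still did not overlap. The largest terms of that marker sum were Lyz2 (mean 5806 CPM in Ptgs-competent and 8057 CPM in Ptgs-deficient TAMs) and C1qa (3518 and 6830 CPM). With libraries scaled to those markers in edgeR, the log2 fold change of Tbxas1 was 1.48 (adjusted p = 0.301), where the median over all genes moved to -0.95.

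Ptgs1, encoding COX-1, had 197, 397 and 465 counts in Ptgs-competent replicates 1, 2 and 3, or 31.4, 65.2 and 100.2 CPM. Ptgs-deficient TAMs had 110, 237 and 206 counts, or 20.1, 28.2 and 42.6 CPM. The groups overlapped, because Ptgs-deficient replicate 3 lay above Ptgs-competent replicate 1. Means were 65.6 ± 34.4 and 30.3 ± 11.4 CPM (SD, n = 3 each). This gave -1.11 as the log2 fold change (SE 0.827, 95% interval -2.95 to 0.73, adjusted p = 0.962, edgeR). Without Ptgs-competent replicate 3 it was -0.62.

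Ptgs2, encoding the inducible COX-2, had 80, 323 and 465 counts in Ptgs-competent TAMs, or 12.8, 53.0 and 100.2 CPM, and 55, 451 and 93 counts in Ptgs-deficient TAMs, or 10.0, 53.7 and 19.2 CPM. Transcripts of both cyclooxygenases were thus detected in all 6 libraries, including those from tumors whose cells had been edited in these genes. Whether edited tumor cells still make such transcripts was not tested. Libraries of each group were spread from low to high, and Ptgs-deficient replicate 2 equaled Ptgs-competent replicate 2 to within 1 CPM. The log2 fold change was -0.998 (SE 1.07, 95% interval -3.37 to 1.38, adjusted p = 0.9995, edgeR), and it ranged from -1.91 (without Ptgs-deficient replicate 2) to -0.18 (without Ptgs-competent replicate 3) with 1 library left out. Ptgs2 outnumbered Ptgs1 in 1 library, Ptgs-deficient replicate 2, with a ratio of 1.90, and in the others the ratio of their counts was between 0.406 and 1.

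The tumor or stromal transcripts (12 genes, such as Sparc, Fermt2 and Prkg2) were chosen with earlier results of these data known. They were lower in Ptgs-deficient TAMs for all 9 that were tested. In edgeR's quasi-likelihood test 6 had an unadjusted p under 0.05, beside 8.83% of all tested genes, and 0 were called. The likelihood ratio test and DESeq2 called 5 each, beside 2.74% and 3.73% of all tested genes. Fermt2, Sdpr and Prkg2 had at most 2 counts in a Ptgs-deficient library and passed the filter through the Ptgs-competent libraries alone, which fixed their direction. S100b was the single gene of this list at 0 in every library. Ptgs-competent replicate 3, which had the highest level of both cyclooxygenases and of Ptges, also had the highest sum of this list. Neutrophil genes summed to 628, 724 and 621 CPM in Ptgs-competent and 532, 473 and 452 CPM in Ptgs-deficient TAMs. Of those tested, 4 were lower and 2 higher. Endothelial genes summed to 103, 197 and 92.9 against 65.1, 22.3 and 39.5 CPM. The part of any of these cells in the cyclooxygenase and Ptges levels was not tested. Of 7 melanocyte genes, Pmel, Dct, Tyr, Mlana, Tyrp1 and Sox10 had 0 counts in every library. The remaining one, Mitf, which macrophages also express, had 12, 0 and 3 counts in Ptgs-competent and 58, 372 and 88 in Ptgs-deficient TAMs (adjusted p = 0.703, edgeR). Relative to the macrophage markers, Ptgs1 stood at 1.86, 3.60 and 15.3 CPM per 1000 CPM in Ptgs-competent and at 0.919, 1.30 and 1.66 in Ptgs-deficient TAMs, lower without overlap. On that scale 18% of tested genes were lower without overlap and 4.98% higher, since the marker sum itself was larger in each Ptgs-deficient library. Hpgds was the other member lower without overlap on that scale, and Tbxas1 and Ptgir were higher.

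**Figure D2:**
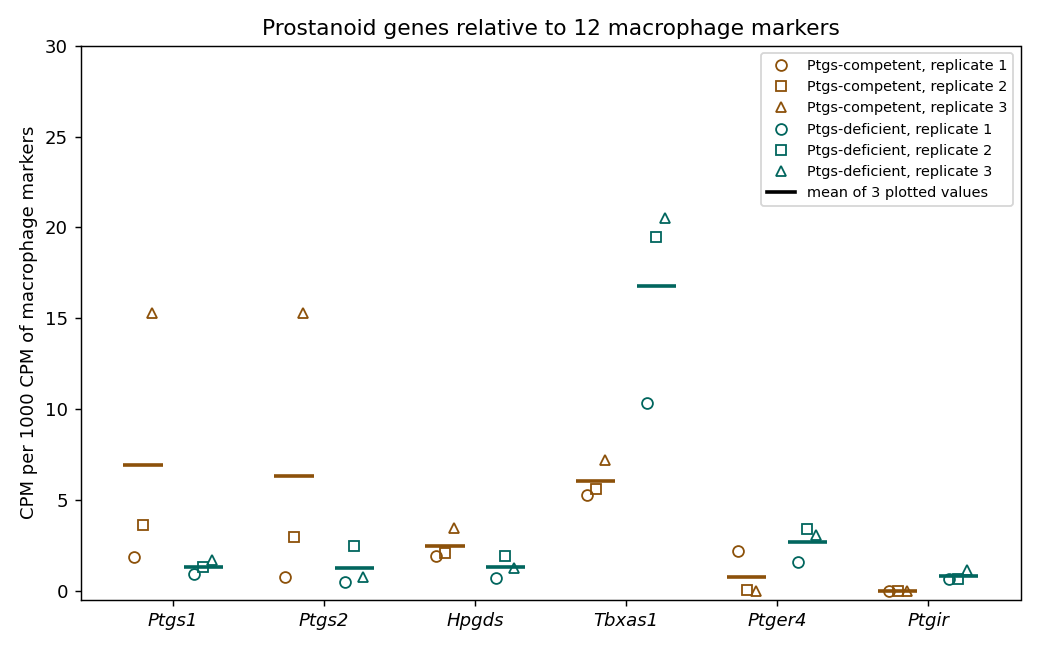
Levels of 6 prostanoid genes in CPM per 1000 CPM of 12 macrophage markers, by library (symbols), with the mean of 3 libraries as a bar. Tbxas1 is at 10.3 or more in the Ptgs-deficient libraries and at 7.17 or less in the Ptgs-competent ones, and the high Ptgs1 and Ptgs2 points are Ptgs-competent replicate 3.

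Ptges encodes microsomal prostaglandin E synthase-1, the inducible enzyme that acts with COX-2 to make PGE2. It was unevenly detected, with 204, 1 and 1010 counts in Ptgs-competent replicates 1, 2 and 3, or 32.5, 0.164 and 218 CPM. Ptgs-deficient TAMs had 0, 49 and 0 counts, or 0, 5.83 and 0 CPM. The groups overlapped, because Ptgs-competent replicate 2 lay below Ptgs-deficient replicate 2, and Ptgs-competent replicate 3 carried most of the group's counts. Means were 83.5 ± 117 and 1.94 ± 3.37 CPM (SD, n = 3 each), so that the SD exceeded the mean in both groups, and its pooled coefficient of variation lay at percentile 99.5 of the tested genes. The log2 fold change was -5.37 (SE 2.36, 95% interval -10.6 to -0.13), with an unadjusted p of 0.0455 and an adjusted p of 0.540 in edgeR. Without Ptgs-competent replicate 3 it was -3.01 (adjusted p = 0.953). Without Ptgs-deficient replicate 2, which leaves that group at 0, the fitted value was -11.8 and is no bound. Over the alternatives the adjusted p ranged from 0.00585 to 0.953, with 1 call, when the filter on low counts was dropped.

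Ptges3 encodes p23, an HSP90 co-chaperone also known as cytosolic PGE synthase. Its counts were 492, 30 and 1 in Ptgs-competent and 80, 428 and 117 in Ptgs-deficient TAMs, or 78.4, 4.92 and 0.216 against 14.6, 51.0 and 24.2 CPM. The Ptgs-competent libraries held both its highest and its lowest level. The log2 fold change was 0.10 (SE 1.66, 95% interval -3.59 to 3.79, adjusted p = 0.9995, edgeR), and its sign changed when single libraries were left out.

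Hpgds encodes the hematopoietic PGD2 synthase, found in mast cells, some T cells and macrophages. Its counts were 203, 231 and 104 in Ptgs-competent and 82, 343 and 158 in Ptgs-deficient TAMs, or 32.4, 37.9 and 22.4 against 15.0, 40.8 and 32.7 CPM. The groups overlapped fully and the means were close, 30.9 ± 7.85 and 29.5 ± 13.2 CPM (SD, n = 3 each). The log2 fold change of -0.07 had a 95% interval from -2.49 to 2.36 (SE 1.09, adjusted p = 0.9995, edgeR), which leaves room for differences of over 4-fold either way. Of 10 mast cell markers, Kit, Fcer1a, Ms4a2 and Tpsab1 had 0 counts in every library. The list summed to 83.7, 108 and 79.3 CPM in Ptgs-competent and 48.5, 36.3 and 13.7 CPM in Ptgs-deficient TAMs. In the Ptgs-competent libraries most of this was Hdc, a histidine decarboxylase gene also used by other myeloid cells. Hdc stood at 71.2, 96.8 and 79.3 against 1.09, 34.3 and 13.7 CPM. Other members went the opposite way in single libraries, with Cpa3 at 27.9 CPM and Cma1 at 19.3 CPM in Ptgs-deficient replicate 1 (Cpa3 at 0 elsewhere, Cma1 at 9.56 CPM in Ptgs-competent replicate 1). The part of mast cells in the Hpgds level was not tested. The ratio of Tbxas1 to Hpgds counts was 2.73, 2.68 and 2.10 in Ptgs-competent and 15.1, 10.4 and 16.1 in Ptgs-deficient libraries.

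Summed over the 6 synthesis enzymes, levels were 276, 263 and 488 CPM in Ptgs-competent and 286, 603 and 646 CPM in Ptgs-deficient TAMs, and the groups overlapped. Their make-up differed more than their sum. Tbxas1 was 32.1%, 38.7% and 9.63% of the sum in Ptgs-competent and 79.1%, 70.2% and 81.6% in Ptgs-deficient TAMs. The share of Ptgs1 was 11.4%, 24.8% and 20.5% in Ptgs-competent and 7.03%, 4.68% and 6.59% in Ptgs-deficient TAMs. Neither share overlapped between the groups, but that of Ptgs1 depended on Tbxas1 as a term of the sum: with Tbxas1 left out of the sum, Ptgs1 was 16.8%, 40.4% and 22.7% in Ptgs-competent and 33.6%, 15.7% and 35.9% in Ptgs-deficient TAMs, and the groups overlapped. The ratio of Tbxas1 to Ptgs1 counts, 2 genes read within the same library and hence free of the scaling between libraries, was 2.82, 1.56 and 0.469 in Ptgs-competent and 11.3, 15.0 and 12.4 in Ptgs-deficient TAMs. These shares and ratios are descriptions and were not tested. Besides Tbxas1, the lower mean of Ptgs1 in Ptgs-deficient TAMs enters the ratio, and Ptges, at 44.6% of the sum in Ptgs-competent replicate 3 and under 1% in each Ptgs-deficient library, enters the shares.

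**Figure D3:**
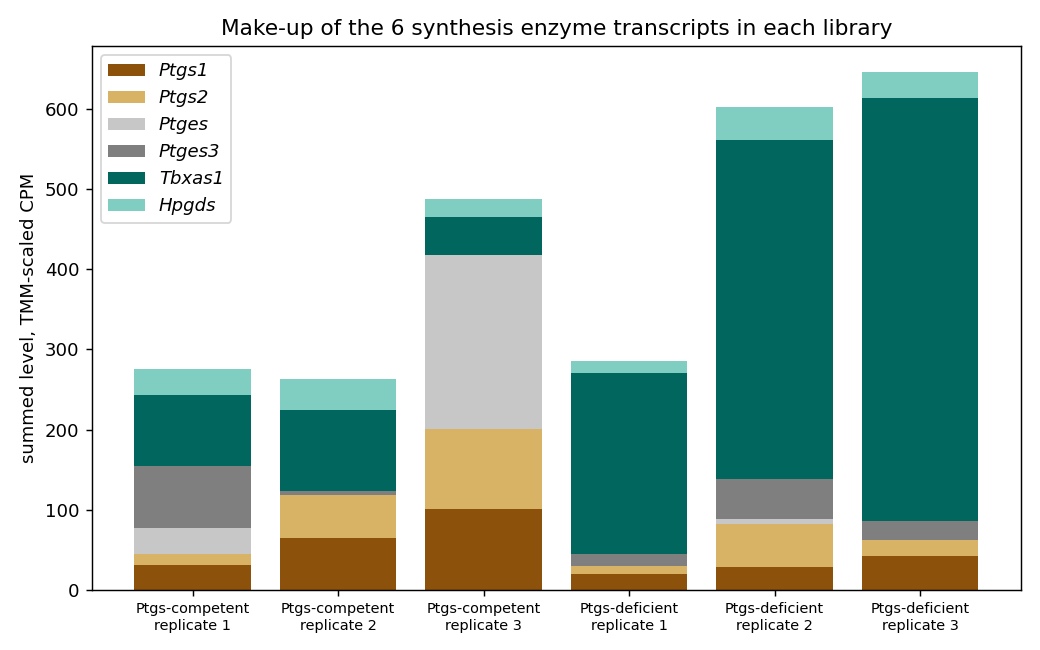
Stacked levels of the 6 synthesis enzymes in each TAM library, in TMM-scaled CPM. Tbxas1 is 70.2% or more of each Ptgs-deficient bar and 38.7% or less of each Ptgs-competent bar, whereas Ptges is the largest segment of Ptgs-competent replicate 3.

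Among the receptors, Ptgir encodes IP, the cAMP-raising receptor for prostacyclin. It had 0 counts in all 3 Ptgs-competent libraries and 76, 116 and 142 counts in the Ptgs-deficient ones, or 13.9, 13.8 and 29.4 CPM. The groups did not overlap. Its mean of 19.0 ± 8.97 CPM (SD, n = 3) in Ptgs-deficient TAMs was 35.3 times the mean floor of 3 counts in the Ptgs-competent libraries. That floor covers counting error only, so the ratio is no bound on the fold. The unadjusted p was 0.0136 and the adjusted p 0.346 in edgeR's quasi-likelihood test, so the difference did not pass it. The adjusted p was 0.0297 by edgeR's likelihood ratio test and 0.00502 by DESeq2, in a range of 0.00502 to 0.753 over 18 alternatives. Its pattern was shared by 1.51% of tested genes, those with at most 3 counts in each Ptgs-competent and more in each Ptgs-deficient library.

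Ptger4 encodes EP4, a high-affinity PGE2 receptor. Its counts were 230, 3 and 0 in Ptgs-competent and 191, 622 and 382 in Ptgs-deficient TAMs, or 36.7, 0.492 and 0 against 34.9, 74.1 and 79.0 CPM. Ptgs-competent replicate 1 lay within the Ptgs-deficient range and the other Ptgs-competent libraries were at or under 3 counts. Means were 12.4 ± 21.0 and 62.7 ± 24.2 CPM (SD, n = 3 each). On the log2 scale the fold change was 2.34 (SE 1.77, 95% interval -1.60 to 6.27, adjusted p = 0.974, edgeR). The size of the difference depended on Ptgs-competent replicate 1 and on the method. Without that library the fitted log2 fold change was 7.81, which rests on 3 remaining Ptgs-competent counts and is no bound. With all 6 libraries limma voom gave 5.44. Leaving out Ptgs-competent replicate 1 lowered the adjusted p to 0.164, the lowest over the alternatives, whose highest was near 1.

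Ptger2 encodes EP2, the other cAMP-raising PGE2 receptor. It had 51, 117 and 0 counts in Ptgs-competent and 0, 22 and 0 in Ptgs-deficient TAMs, or 8.13, 19.2 and 0 against 0, 2.62 and 0 CPM. Each group held a library at 0, and 3 of the 6 libraries had any count. The log2 fold change of -3.34 had a 95% interval from -10.0 to 3.35 (adjusted p = 0.9995, edgeR). With 1 library left out it ranged from -8.64 (without Ptgs-deficient replicate 2, which leaves that group at 0, so that the fitted value is no bound) to -2.18 (without Ptgs-competent replicate 2). Ptger4 exceeded Ptger2 in each Ptgs-deficient library, while in Ptgs-competent replicate 2 Ptger2 made up 97.5% of the receptor sum. Receptor sums were 44.8, 19.7 and 0 CPM in Ptgs-competent and 48.7, 90.5 and 108 CPM in Ptgs-deficient TAMs, with a gap of under 4 CPM between the nearest libraries.

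Hpgd encodes 15-hydroxyprostaglandin dehydrogenase, which starts the breakdown of PGE2. It had 0 counts in every Ptgs-competent library and 0, 3 and 1 counts in the Ptgs-deficient ones. Both groups were at or under the floor of 3 counts, so no fold is given and a difference was not detectable at this depth.

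Ordered by mean level, Ptgs-competent TAMs had Ptges (83.5 CPM), Tbxas1 (79.0 CPM), Ptgs1 (65.6 CPM), Ptgs2 (55.3 CPM), Hpgds (30.9 CPM), Ptges3 (27.9 CPM), Ptger4 (12.4 CPM) and Ptger2 (9.11 CPM), with Ptgir and Hpgd at 0. Each of these neighbors overlapped the next over the 3 libraries, and single libraries set the place of some. Without replicate 3 the mean of Ptges was 16.3 CPM, below that of Tbxas1, Ptgs1, Ptges3, Hpgds, Ptgs2 and Ptger4, and without replicate 1 those of Ptges3 and Ptger4 were 2.57 and 0.246 CPM. In Ptgs-deficient TAMs the order was Tbxas1 (392 CPM), Ptger4 (62.7 CPM), Ptgs1 (30.3 CPM), Ptges3 (29.9 CPM), Hpgds (29.5 CPM), Ptgs2 (27.7 CPM), Ptgir (19.0 CPM), Ptges (1.94 CPM), Ptger2 (0.873 CPM) and Hpgd (0.188 CPM). There Tbxas1 stood clear of the next gene, its lowest library at 226 CPM against 79.0 CPM for the highest of Ptger4, and Ptgir stood clear of Ptges.

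The wider pathway gave 21 further genes, of which 11 passed the filter. None of the 11 was called or had an unadjusted p under 0.05 in edgeR's quasi-likelihood test, and neither edgeR's likelihood ratio test nor DESeq2 called any. Their log2 fold changes were positive for 7 and negative for 4, with a median of 0.25. Upstream of the cyclooxygenases, Pla2g4a, the cytosolic phospholipase that frees arachidonic acid, had 131, 84 and 316 counts in Ptgs-competent and 139, 237 and 73 in Ptgs-deficient TAMs, a log2 fold change of -0.58. Among the other synthases, Ptges2 (microsomal PGE synthase-2) had 0, 33 and 0 against 120, 216 and 43 counts, or 0, 5.42 and 0 against 21.9, 25.7 and 8.90 CPM. The groups did not overlap, but the log2 fold change of 3.37 had an SE of 2.68. Ptges2 passed the filter through the Ptgs-deficient libraries alone, which largely fixed its direction. Fam213b, which encodes a prostamide and PGF synthase, was well detected in all libraries (177 to 1414 counts) with a log2 fold change of -0.49 (SE 0.640). Ptgds and Ptgis, encoding the lipocalin-type PGD2 synthase and prostacyclin synthase, had 0 counts and 1 count over all 6 libraries.

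The carbonyl reductase gene Cbr3 had 11, 0 and 0 counts in Ptgs-competent and 158, 320 and 80 in Ptgs-deficient TAMs, or 1.75, 0 and 0 against 28.8, 38.1 and 16.6 CPM. It separated the groups, with an unadjusted p of 0.0574 and an adjusted p of 0.609 (edgeR, log2 fold change 5.51, SE 2.57). Cbr3 passed the filter through the Ptgs-deficient libraries alone, which largely fixed its direction. Its paralog Cbr1, which reduces PGE2 to PGF2α, overlapped between the groups (log2 fold change 0.68). Of the reductases acting after 15-PGDH, Ptgr1 had log2 fold change 0.25, Ptgr2 1.21 and Zadh2 0.35, none past a threshold. Akr1b3, an aldose reductase with PGF synthase activity, Abcc4, a prostanoid exporter, and Ppard, a nuclear receptor that can bind prostacyclin, had log2 fold changes of -0.69, 0.09 and -2.13 with standard errors of 2.64, 2.47 and 2.77.

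Receptor transcripts outside the 3 members were at 0 or present in few libraries. Ptger1, Ptger3, Ptgdr, Ptgdr2 and the thromboxane receptor gene Tbxa2r had 0 counts in every library, as did the prostaglandin importer Slco2a1. Transcripts of the receptor for thromboxane A2 were thus not detectable at this depth in either group, at a floor of 3 counts per library. Ptgfr, the PGF2α receptor gene, had 0, 269 and 55 counts in Ptgs-competent and 0 in all Ptgs-deficient libraries. Its Ptgs-competent mean of 18.7 CPM was higher than those of Ptger4 and Ptger2, and came from 2 libraries. Pparg had 61 counts in Ptgs-deficient replicate 3 and 0 elsewhere.

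**Figure D4:**
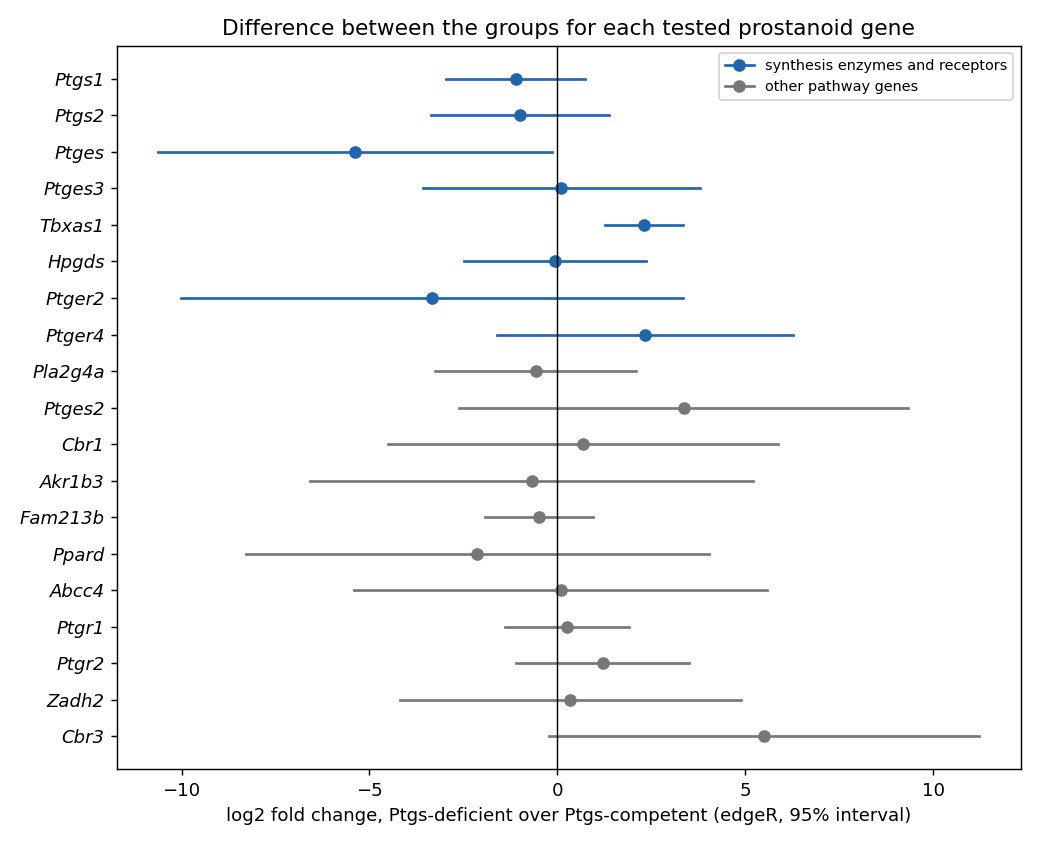
Log2 fold change (Ptgs-deficient over Ptgs-competent, points) with the 95% interval (lines) from edgeR for the tested prostanoid genes, in blue for members and gray for the wider pathway. Ptgir is left out because it was at 0 in every Ptgs-competent library. Intervals for all genes but Tbxas1 and Ptges include 0, and that of Tbxas1, 1.28 to 3.34, is among the narrowest.

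The lipoxygenase branch, which draws on the same arachidonic acid to make leukotrienes, was counted beside the cyclooxygenase branch. Of 14 genes, 9 were tested, 0 were called by edgeR's quasi-likelihood or likelihood ratio test or by DESeq2, and 3 had an unadjusted p under 0.05 in edgeR, all higher in Ptgs-deficient TAMs, beside 8.83% of all tested genes. Alox5ap, encoding the 5-lipoxygenase-activating protein, was by far the most abundant of the 3, with 4373, 1750 and 895 against 3342, 7088 and 5060 counts and a log2 fold change of 1.09 (unadjusted p = 0.0446, adjusted p = 0.533, edgeR). The other 2, Alox15 and Ggt5, were at 0 in all Ptgs-competent libraries, with at most 50 and 200 counts in a Ptgs-deficient one, and passed the filter through the Ptgs-deficient libraries alone, which fixed their direction.

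On the GRCm38 assembly Ptgs1 lies at chr2:36230426-36252272, Ptgs2 at chr1:150100031-150108227, Ptges at chr2:30889471-30929863, Tbxas1 at chr6:38875404-39084585, Ptger4 at chr15:5206661-5244187 and Ptgir at chr7:16906490-16910905. The counts are sums over whole genes and do not say in which exon or UTR a read fell. Tbxas1 overlaps Hipk2 and Ptger4 overlaps Ttc33, each on the opposite strand, and neither neighbor exceeded 147 counts in a library. The strand setting of the counting was not given in the sources used here, so reads from such overlaps cannot be told apart.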

How the data were processed

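TAMs were sorted from Ptgs-competent and Ptgs-deficient melanomas (3 libraries each) and sequenced from 800 pg of RNA with a 3′-end kit without stated molecular identifiers. The authors deposited raw read counts per gene, made by trimming (BBDUK, fqtrim, cutadapt), STAR alignment to GRCm38 and featureCounts on the Ensembl annotation release named in the study. Tool versions, strand and multimapping settings are not given in the sources used here. PCR copies therefore count as reads, and genes with close copies may share them. Here, genes were kept by filterByExpr (minimum count 10, total 15), which left 8793, TMM-scaled and tested by edgeR 4.0.16 (quasi-likelihood) in R 4.3.3, two-sided, with Benjamini-Hochberg adjustment over all tested genes. Standard errors are the log2 fold change over the square root of F. Labels do not say whether pools were independent, so p-values measure the spread between libraries, which may be partly technical. A gene was called at the thresholds the study used (0.05 and 1.5). Levels are mean ± SD.

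The members and gene lists were chosen with earlier results of these data known. All members are named with every library's value, and pathway genes by counts, with values for those that pass the filter. Other lists are given by sums or counts where they are discussed. Lists of eosinophil, dendritic cell, NK cell and T cell genes are not shown. Other names are examples or were chosen after their values were seen. Alternatives were RLE, upper-quartile and no scaling, other filters, edgeR's likelihood ratio and robust tests, DESeq2 1.42.0, limma 3.58.1 voom with and without quality weights, the replicate number as a block and each library left out. Scaling to macrophage markers was added after seeing the data. The tests were checked on simulated counts first. Positions are from GENCODE M21 (GRCm38), counted from 1, and promoters from RefSeq (10 of 10 members matched).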

Additional observations from a re-analysis of the deposited data

How the results depend on the processing

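Counts of called genes depended on the test. Against 19 in the main analysis, 252 genes were called without the filter on low counts, 241 by edgeR's likelihood ratio test, 328 by DESeq2, 96 by limma voom, 123 by voom with quality weights, 1 with libraries scaled to macrophage markers (chosen after seeing the data) and 0 to 25 with 1 library left out, the 0 being without Ptgs-competent replicate 1. Of the members, 2 were called without the filter (Ptges and Tbxas1), 2 by the likelihood ratio test and 2 by DESeq2 (Ptgir and Tbxas1 in both), 1 by voom and 1 by voom with weights (Tbxas1), and 0 whichever library was left out. In the lipoxygenase list 0 to 1 gene was called with a library left out (Ltc4s without Ptgs-competent replicate 2). Ltc4s had 0, 545 and 0 counts in Ptgs-competent TAMs, so leaving out that library put the group at 0 and fixed the direction. Replicate numbers did not pair the samples: correlations of deviations between same-numbered libraries were -0.05, -0.02 and -0.02. With the replicate number as a block, 77 genes and 1 member (Tbxas1, adjusted p = 0.0436, edgeR) were called.

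Tbxas1, Ptger4, Ptgs1, Ptges and Ptger2 kept their direction wherever they were fitted. That of Ptgir could not change, as it was at 0 in every Ptgs-competent library. The log2 fold change changed sign for Ptgs2 under voom with quality weights (0.0396), and for Hpgds there (0.0846), without Ptgs-competent replicate 2 (0.11) and without Ptgs-deficient replicate 1 (0.29). With 1 library left out it ranged from -0.37 to 0.29 for Hpgds and from -0.53 to 3.53 for Ptges3. That of Ptges3 turned to -0.39 without Ptgs-competent replicate 2, -0.44 without Ptgs-competent replicate 3, -0.53 without Ptgs-deficient replicate 2 and -0.32 under macrophage marker scaling. The cause was not tested. The median over all genes shifted by over 0.1 under voom (0.34), voom with weights (0.39), the block (0.26), macrophage marker scaling (-0.95) and without Ptgs-competent replicate 1 (0.14) or 3 (0.13). Mean levels moved by at most 1 SD in all 60 comparisons with other scalings. TMM factors lay between 0.954 and 1.07, so large moves could hardly arise. Ptgir and Hpgd, at 0 in the Ptgs-competent libraries, could not move there. Depth limits Hpgd, Ptger2 and the receptors at 0 counts.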
